A study of Mus musculus with 11 samples.

Results

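Genes of oxidative phosphorylation were followed in bulk RNA-seq of marrow stromal cells from mice treated with doxorubicin, an anthracycline chemotherapy drug. Members were taken by symbol: nuclear genes for subunits of complexes I to V (Nduf, Sdh, Uqcr, Cox and Atp5 symbols) and protein-coding genes of the mitochondrial genome (mt- symbols). This gave 108 of the 24718 rows of the count table, 95 nuclear and 13 mt-. The nuclear rows comprised 43 of complex I, 4 of complex II, 8 of complex III, 18 of complex IV and 22 of complex V, and 9 of them carry pseudogene names. A low-count filter (filterByExpr in edgeR) kept 90 nuclear rows, 6 of them with pseudogene names, and 11 mt- rows. Atp5c1-ps, Atp5l-ps1, Atp5l-ps2, Ndufa11b, Ndufs6b, mt-Atp8 and mt-Nd4l were not tested.

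Every library came from the bone marrow of a female Lepr-Cre;LSL-tdTomato+/- mouse, in which leptin receptor-driven Cre turns on a red reporter in stromal progenitors, and tdTomato-positive cells were sorted straight into lysis buffer. The DOX4X group (n = 4, aged 8 to 10 weeks at treatment) received 4 intravenous doses of 5 mg/kg doxorubicin with a 1 week interval. The DOX1X group (n = 3, young adults) received 1 intravenous dose of 10 mg/kg, and the PBS group (n = 4, age not given in the sources used here) received 4 intravenous injections of saline. Tissue was taken 8 weeks after treatment. The reporter records past as well as present Cre activity, so it does not by itself define 1 cell type. The labels number the libraries as biological replicates.

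Oxidative phosphorylation passes electrons from NADH (complex I) and succinate (complex II) through complex III to oxygen at complex IV, and the proton gradient built on the way drives ATP synthase (complex V). Most subunits are encoded in the nucleus, but the mitochondrial genome encodes core subunits of complexes I, III, IV and V, so each of those 4 complexes needs transcripts of both genomes. Stromal progenitors of the marrow are known for a largely glycolytic metabolism that shifts towards respiration as they differentiate, and doxorubicin is known to harm mitochondria in the heart.

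Total counts per library ran from 29540422 to 42784036. The 7 stromal markers (Cxcl12, Lepr, Kitl, Adipoq, Pdgfra, Foxc1 and Ebf3) summed to between 56349 and 67223 CPM (counts scaled to a common library size with TMM factors) in DOX4X, between 57150 and 71910 in DOX1X and between 62979 and 71478 in PBS, and the markers of the labelled cell type were thus present in every library. PBS 4 has a title that begins with the doxorubicin abbreviation but a saline treatment label, and it was kept as PBS. By the column names, flow cell 2 held the 4 DOX4X libraries and DOX1X 3, and flow cell 1 held the remaining DOX1X libraries with the 4 PBS libraries. DOX4X and PBS therefore share no flow cell, and only the 3 DOX1X libraries link them. PBS 4, DOX1X 3 and DOX4X 3 stood apart from the rest of their groups in the pattern of members described further on. Counts of members above 0 are given with and without them for each comparison.

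The mt- rows differed widely in counts and in how much of their sequence recurs elsewhere. The nuclear genome holds copies of mitochondrial DNA. In the annotation used here (GENCODE vM21, GRCm38, a build other than the GRCm39 of the counts), copies on chromosomes 1 and 2 are listed as pseudogenes. Gm10925 is identical to mt-Atp6 over all 678 of its bases, Gm28661 to mt-Co2 over 681, Gm28437 to mt-Co3 over 783 and Gm10222 to mt-Nd4l over 294, while Gm28439 is identical to mt-Nd4 over its first 876 of 1378 bases. Gm28438 differs from mt-Nd3 at 1 of 345 bases, and Gm13340 differs from mt-Co1 at 37 of 1545 (97.6% identity). The stretches below show the only difference of mt-Nd3 from its copy and 3 of the differences of mt-Co1 from Gm13340, with the differing bases in capitals. They show how few bases could assign a read to one row or the other. The mt-Nd3 stretch lies at chrMT:9459-9501 on the plus strand, its copy at chr1:24613077-24613119 on the minus strand, the mt-Co1 stretch at chrMT:5341-5421 on the plus strand and its copy at chr2:22589554-22589634 on the minus strand (all GRCm38).
mt-Nd3: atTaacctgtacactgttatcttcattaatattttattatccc
Gm28438: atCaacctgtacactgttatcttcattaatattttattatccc
mt-Co1: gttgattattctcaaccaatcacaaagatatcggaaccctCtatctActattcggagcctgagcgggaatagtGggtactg
Gm13340: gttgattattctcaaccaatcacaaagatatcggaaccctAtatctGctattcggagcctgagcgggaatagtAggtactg

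Counts of the mt- rows fell into separate ranges. The 7 rows mt-Cytb, mt-Co1, mt-Nd1, mt-Nd4, mt-Nd5, mt-Nd2 and mt-Nd6 held between 99.7% and 99.8% of all mt- counts in every library, with medians from 4565 counts per kilobase (mt-Nd6) to 47226 (mt-Cytb, the cytochrome b core of complex III). At most 62.2% of the 50-base windows of any of these 7 genes occurred in another annotated transcript. The 5 genes with 98.0% to 100% of their windows in other transcripts, mt-Nd3, mt-Nd4l, mt-Co3, mt-Atp6 and mt-Co2, had medians from 3.37 (mt-Nd4l) to 181 (mt-Nd3) counts per kilobase. The copies were counted at a like low level: Gm28661 ran from 57 to 147 counts where mt-Co2 ran from 44 to 119, and Gm28437 from 111 to 273 where mt-Co3 ran from 67 to 172. mt-Atp8 is the exception, with no window shared and 0 to 4 counts. It is 204 bases long and overlaps mt-Atp6. How multi-mapping reads and overlapping genes were counted is not given in the sources used here, and its part in these low counts was not tested. The low rows are given below as counts in the table and not as transcript levels.

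**Figure D1:**
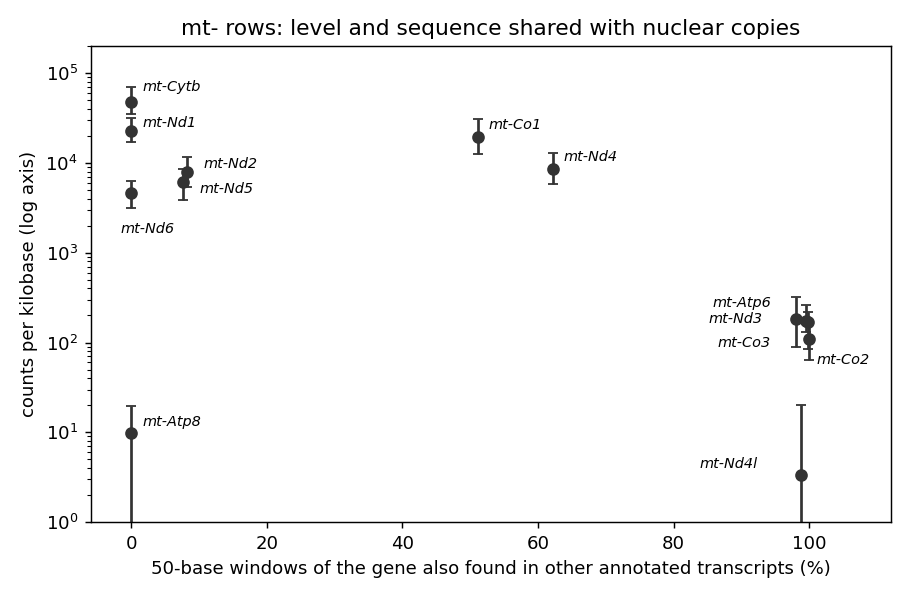
Level of each of the 13 mt- rows (median over 11 libraries in counts per kilobase, log axis; bars run from the lowest to the highest library, and bars that reach 0 run to the foot of the axis) against the share of its 50-base windows also found in other annotated transcripts. The 5 genes at 98.0% or more lie at or below a median of 181 counts per kilobase, and 7 of the other genes lie at or above 4565.

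Promoters of the nuclear members were set beside those of other genes, since NRF1, ETS-family factors and YY1 are known regulators of nuclear respiratory genes. RefSeq promoters (250 bases before to 50 bases after each start, GRCm38.p6) were available for 67 nuclear members, in 72 promoters. The NRF1 motif (GCGCA and GCGC with 1 base of any kind between them) was found on either strand in 18 of the 72 (25.0%), against 8.58% of the 15398 promoters of all genes tested. The ETS motif CCGGAAG was found in 23.6% against 15.5%, and the YY1 motif AAGATGGCG in 9.72% against 2.54%. Each share is a description of letters in these windows and not of binding. The stretches around the NRF1 matches of 4 members named below, which have one upstream of the start, are shown with the matching letters in capitals. They lie at chr5:115349086-115349145 (Cox6a1), chr9:50603894-50603953 (Sdhd), chr13:74350304-74350363 (Sdha) and chr15:102671055-102671114 (Atp5g2), all on the minus strand of GRCm38.p6. The 4 come from 3 complexes, and their values under doxorubicin, given below, differ.
Cox6a1: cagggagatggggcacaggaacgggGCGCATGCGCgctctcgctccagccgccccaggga
Sdhd: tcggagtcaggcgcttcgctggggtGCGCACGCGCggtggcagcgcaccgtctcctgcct
Sdha: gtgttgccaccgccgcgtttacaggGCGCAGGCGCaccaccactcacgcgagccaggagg
Atp5g2: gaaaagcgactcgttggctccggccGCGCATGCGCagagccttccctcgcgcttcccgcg

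Per kilobase of mRNA, the nuclear members were at a broadly even level with a few low isoforms. Of 81 tested members with a known mRNA length and no pseudogene name, 76 had a mean above 25 CPM per kilobase, with a median of 79.6. The highest were Atp5b (the catalytic beta subunit of ATP synthase) at 378 CPM per kilobase, Ndufa4 (named as a complex I gene but found in complex IV) at 312, Atp5g3 (a gene for subunit c of the ATP synthase rotor) at 281 and Atp5h (a subunit of the ATP synthase stalk) at 280 CPM per kilobase. In their own complexes, Cox6c (a small subunit of complex IV) at 261, Sdha (the flavoprotein of complex II) at 105 and Uqcrb (a small subunit of complex III) at 216 CPM per kilobase were the highest. The 5 of these 81 below 25 CPM per kilobase are all alternative isoforms: Cox6b2 (the testis form of Cox6b1) at 17.8, Ndufa4l2 (a hypoxia-induced relative of Ndufa4) at 17.0, Cox4i2 (the lung and hypoxia form of Cox4i1) at 11.3, Cox7a1 at 0.977 and Cox6a2 at 0.648 (both heart and muscle forms). The pseudogene row Cox5b-ps, left out of these counts, was at 5.50 CPM per kilobase.

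The main isoform carried most of the level in every pair. Cox4i2 made up 4.63% ± 0.70 of the summed CPM per kilobase of Cox4i1 and Cox4i2 in DOX4X (SD, n = 4), 4.45% ± 0.64 in DOX1X (n = 3) and 4.34% ± 0.82 in PBS (n = 4). Cox6b2 made up 8.34% ± 1.79 of its pair with Cox6b1 in DOX4X, 8.17% ± 0.82 in DOX1X and 6.40% ± 1.87 in PBS. Ndufa4l2 made up 5.36% ± 1.5 of its pair with Ndufa4 in DOX4X, 3.70% ± 0.72 in DOX1X and 6.25% ± 2.78 in PBS. The ranges of the groups overlapped for Cox4i2 and for Ndufa4l2, and Cox6b2 in DOX4X (7.01% to 10.8%) overlapped PBS (4.77% to 8.53%). Among the 3 genes that encode the same mature subunit c, Atp5g3 held 57.0% ± 1.36 in DOX4X, 57.9% ± 1.51 in DOX1X and 58.2% ± 2.02 in PBS, and Atp5g2 held 13.2% ± 0.33, 13.5% ± 0.78 and 12.4% ± 1.03 in the same 3 groups. Cox7a1 made up at most 1.57% of its pair with Cox7a2 and Cox6a2 at most 0.572% of its pair with Cox6a1 in any library.

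After 4 doses of doxorubicin, no member passed the threshold against PBS, and most members had slightly higher values. None of the 90 nuclear members and none of the 11 mt- members passed edgeR's quasi-likelihood test (smallest adjusted p = 0.148 for nuclear and 0.241 for mt- members), in a comparison where 26 of 17838 genes did, or 0.146%. Of those 26, 0 were higher. The log2 fold change was above 0 for 74 of 90 nuclear members and for 11 of 11 mt- members, against 52.2% of all genes tested. Its median was 0.09 over the nuclear members, 0.17 over the mt- members and 0.01 over all genes. At an unadjusted p under 0.05, 10 nuclear members (11.1%) and 1 mt- member were higher and none lower, where 6% of all genes were higher and 7.85% lower. In bulk RNA, a change in the mix of sorted cells cannot be told apart from a change in RNA per cell. By DESeq2, 2 nuclear members passed, Atp5g2 (adjusted p = 0.038) and Cox5b (adjusted p = 0.020), while limma-voom with library quality weights gave 0. DESeq2 called 1.01% of all genes higher and 2.34% lower in this comparison, beside 2 of 90 members (2.22%) called higher and 0 lower.

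Complex IV had the highest median of the nuclear complexes. Its 18 members had a median log2 fold change of 0.19 for DOX4X against PBS, with 16 above 0 and 6 higher at an unadjusted p under 0.05. The medians were 0.10 for complex III (8 of 8 above 0), 0.08 for complex I (34 of 41), 0.07 for complex V (15 of 19) and -0.01 for complex II (1 of 4). These medians were not tested against each other. Groups did not overlap, with every DOX4X library above every PBS library, for 7 nuclear members (7.78%) and for 1 mt- member, against 3.17% of all genes tested. The reverse held for none of them, against 4.68% of all genes. The 7 were Cox5b, Cox6b1, Cox8a, Atp5g2, Ndufb3, Ndufs7 and Ndufv1. Ndufs7 and Ndufv1 are named for this count, after their values were seen.

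**Figure D2:**
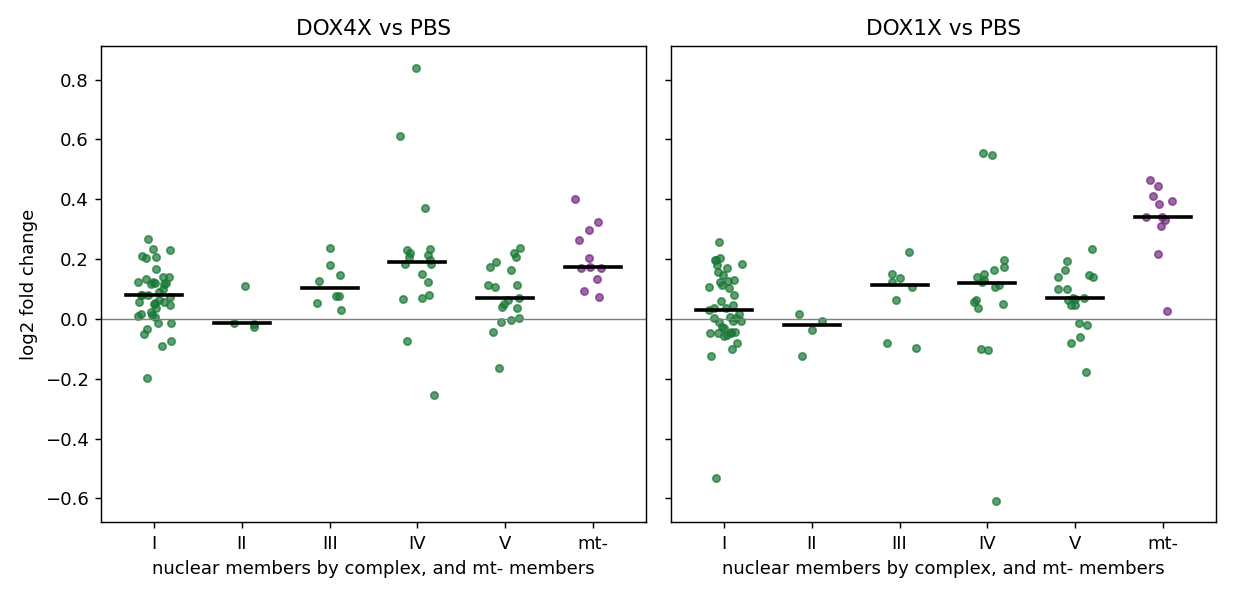
Log2 fold change of each tested member for DOX4X against PBS (left) and DOX1X against PBS (right), nuclear members by complex and mt- members of all complexes together; points are genes and bars are medians. The comparisons share the PBS libraries. In the left panel the medians are 0.19 for complex IV and -0.01 for complex II, and the mt- median is 0.17 in the left and 0.34 in the right panel.

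Cox5b, a nuclear subunit of complex IV on the matrix side, had 56.8, 56.6, 63.7 and 59.9 CPM in DOX4X and 48.9, 51.9, 50.7 and 50.2 CPM in PBS. All 4 DOX4X libraries were above all 4 PBS libraries. The log2 fold change was 0.23 (SE 0.06, edgeR adjusted p = 0.15). Cox6b1, which joins the monomers of complex IV on the intermembrane side, had 135, 135, 154 and 140 CPM in DOX4X and 120, 121, 122 and 126 CPM in PBS. These groups did not overlap either, and the log2 fold change was 0.21 (SE 0.06, edgeR adjusted p = 0.21). Cox8a, a small complex IV subunit, had 124, 130, 139 and 139 CPM in DOX4X and 121, 115, 122 and 111 CPM in PBS, with the lowest DOX4X library just above the highest PBS library (log2 fold change 0.18, SE 0.07, edgeR adjusted p = 0.26). Cox6b2 had the largest log2 fold change of the members above 5 CPM, 0.61 (SE 0.21, edgeR adjusted p = 0.24). It had 12.3, 9.48, 8.72 and 7.96 CPM in DOX4X and 7.20, 8.48, 4.73 and 4.74 CPM in PBS, and PBS 2 lay above DOX4X 4. Cox6a1 was at a log2 fold change of 0.19 (SE 0.07), Cox7a2 at 0.22 (SE 0.09), Cox4i1 at 0.12 (SE 0.10), Cox7b at 0.15 (SE 0.11), Cox6c at 0.07 (SE 0.11) and Cox4i2 at 0.23 (SE 0.17). All 6 of these values were above 0, and none passed the threshold. Cox7a2l, a factor that joins complexes III and IV, was at -0.07 (SE 0.07). Cox7a1 was at 0.08 (SE 0.37) and Cox6a2 at 0.84 (SE 0.91), both below 1 CPM in every library, where this depth gives no precise value.

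Atp5g2, the least abundant of the 3 subunit c genes, had 29.4, 30.0, 30.1 and 28.7 CPM in DOX4X and 24.4, 24.6, 26.8 and 24.5 CPM in PBS. The groups did not overlap, and the log2 fold change was 0.24 (SE 0.07, edgeR adjusted p = 0.18). Atp5g1 and Atp5g3, whose mature protein is the same, were at 0.16 (SE 0.08) and 0.11 (SE 0.07), Atp5mpl (a small membrane subunit) at 0.21 (SE 0.10) and Atp5b at 0.00 (SE 0.10). In complex I, Ndufb3, an accessory subunit of the membrane arm, had 47.5, 47.0, 52.0 and 47.7 CPM in DOX4X and 40.8, 40.6, 42.4 and 44.9 CPM in PBS, with no overlap (log2 fold change 0.20, SE 0.08, edgeR adjusted p = 0.27). Of the other complex I members, Ndufc2, also of the membrane arm, was at 0.21 (SE 0.08), Ndufc1 at 0.13 (SE 0.08), Ndufa4 at 0.17 (SE 0.13) and Ndufa4l2 at 0.01 (SE 0.31). The core subunits Ndufv1 (the site of NADH oxidation) and Ndufs7 (an iron-sulfur protein) were both at 0.12 (SE 0.07 and 0.06). None of these passed the threshold. In complex III, Uqcr11 was at 0.24 (SE 0.10), Uqcr10 at 0.18 (SE 0.12) and Uqcrb at 0.08 (SE 0.09). In complex II, which is also an enzyme of the tricarboxylic acid cycle, Sdhb (the iron-sulfur subunit) was at 0.11 (SE 0.06), and the membrane anchors Sdhc and Sdhd were at -0.01 (SE 0.07) and -0.02 (SE 0.07). Sdha had 316, 326, 275 and 311 CPM in DOX4X and 361, 343, 301 and 247 CPM in PBS, and these ranges overlapped widely (log2 fold change -0.03, SE 0.13). The 13 members with no mRNA length in the annotation, mostly pseudogenes and copies, included the lowest nuclear values, Cox7c-ps1 at -0.25 (SE 0.61) and Ndufb4c at -0.20 (SE 0.28).

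**Figure D3:**
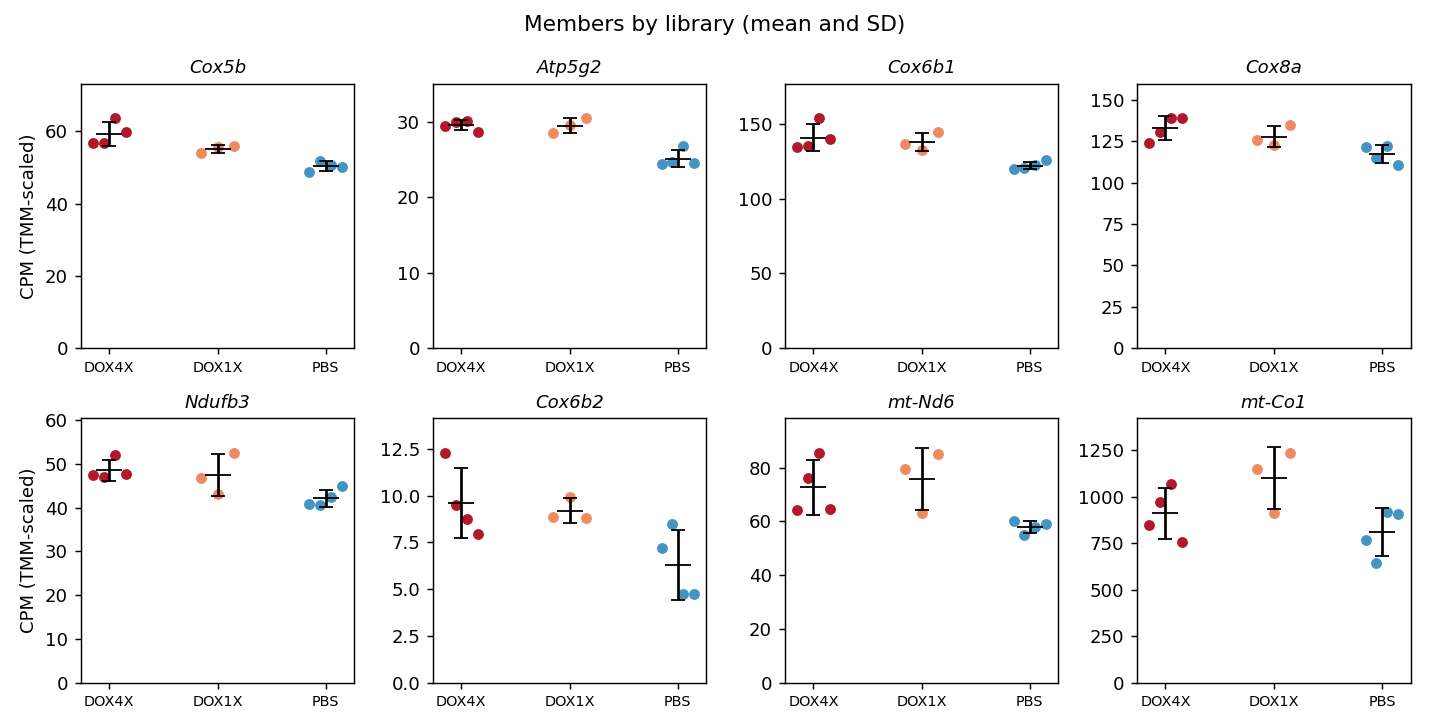
CPM of 8 members in each library (points), with the group mean and SD (bars), for DOX4X (n = 4), DOX1X (n = 3) and PBS (n = 4); each panel starts at 0. Every DOX4X library is above every PBS library for Cox5b, Atp5g2, Cox6b1, Cox8a, Ndufb3 and mt-Nd6, and the groups overlap for Cox6b2 and mt-Co1.

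Among the mt- members, mt-Nd6 had 64.3, 76.1, 85.4 and 64.7 CPM in DOX4X and 60.1, 55.1, 57.9 and 59.0 CPM in PBS. All DOX4X libraries were above all PBS libraries (log2 fold change 0.32, SE 0.11, edgeR adjusted p = 0.24). mt-Nd6 is a complex I gene encoded on the opposite strand to the other members, and the library kit does not mark strand, so its reads cannot be told apart from antisense reads of that region. mt-Co1, the catalytic core of complex IV, had 849, 970, 1067 and 755 CPM in DOX4X and 767, 645, 915 and 908 CPM in PBS, and the groups overlapped (log2 fold change 0.17, SE 0.14, edgeR adjusted p = 0.65). mt-Cytb had 1496, 1581, 2000 and 1348 CPM in DOX4X and 1442, 1318, 1572 and 1693 CPM in PBS, also overlapping (log2 fold change 0.09, SE 0.13). The complex I genes mt-Nd2, mt-Nd4, mt-Nd1 and mt-Nd5 were at 0.26 (SE 0.14), 0.20 (SE 0.13), 0.17 (SE 0.13) and 0.17 (SE 0.13). The low rows mt-Co3, mt-Co2, mt-Nd3 and mt-Atp6 were at 0.40 (SE 0.22), 0.30 (SE 0.22), 0.13 (SE 0.31) and 0.07 (SE 0.23). mt-Nd4l ran from 1 to 2 counts in DOX4X and from 0 to 3 in PBS, and mt-Atp8 from 1 to 4 in DOX4X and from 1 to 3 in PBS.

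With flow cell as a covariate, DOX4X against PBS showed no shared direction. The log2 fold change was then above 0 for 45 of 90 nuclear and 4 of 11 mt- members, with medians of -0.00 and -0.01. Single values moved unevenly: Cox5b was at 0.20 (SE 0.13) and Cox6b2 at 0.71 (SE 0.44), while Ndufb3 was at -0.02 (SE 0.14), mt-Nd6 at 0.07 (SE 0.21) and mt-Co1 at -0.09 (SE 0.28). This fit rests on DOX1X 3 alone as the DOX1X library on flow cell 2, and the standard errors were wider. Since DOX4X and PBS share no flow cell, no value within a flow cell could be had for this comparison.

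After 1 dose, no member passed the threshold against PBS, and the median was higher over the mt- members than over the nuclear members, a difference that was not tested. None of the 90 nuclear members and none of the 11 mt- members passed edgeR's quasi-likelihood test against PBS (smallest adjusted p = 0.60 in both sets), where 1 of 17838 genes did, or 0.00561%. DESeq2 and limma-voom also gave 0 of either set. The log2 fold change was above 0 for 11 of 11 mt- members, with a median of 0.34, and for 61 of 90 nuclear members, with a median of 0.06, against 51.2% of all genes and a median of 0.01. At an unadjusted p under 0.05, 5 mt- members (45.5%) and 3 nuclear members (3.33%) were higher and none lower, against 3.42% of all genes higher and 3.74% lower. Without DOX1X 3, 1 mt- member was higher at that p, without PBS 1, PBS 2 or DOX1X 1 it was 3, and without PBS 4 the counts were 8 mt- and 19 nuclear members. Genes at that p in either direction numbered 1993 of 17730 without PBS 4 and 1533 of 18283 without DOX1X 3, against 1278 of 17838 in the main fit. The mt- members are transcribed together from 1 genome and are not independent of one another. DOX1X and DOX4X were set against the same PBS libraries, so values in both comparisons share the PBS values.

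mt-Co1 had 1150, 912 and 1235 CPM in DOX1X, against 767, 645, 915 and 908 CPM in PBS. DOX1X 2 lay below the highest PBS library, and the other two lay above all PBS libraries (log2 fold change 0.44, SE 0.16, edgeR adjusted p = 0.62). mt-Nd4 had 429, 360 and 466 CPM in DOX1X and 302, 264, 336 and 355 CPM in PBS. It did not overlap, by the narrow margin between DOX1X 2 and PBS 4 (log2 fold change 0.41, SE 0.14, edgeR adjusted p = 0.60). mt-Nd6 had 79.3, 63.0 and 84.8 CPM in DOX1X, above all 4 PBS libraries (log2 fold change 0.38, SE 0.12, edgeR adjusted p = 0.60). mt-Nd2, mt-Nd5, mt-Cytb and mt-Nd1 were at 0.34 (SE 0.15), 0.33 (SE 0.14), 0.31 (SE 0.14) and 0.22 (SE 0.14). The low rows mt-Nd3, mt-Co2, mt-Co3 and mt-Atp6 were at 0.47 (SE 0.33), 0.39 (SE 0.24), 0.34 (SE 0.23) and 0.03 (SE 0.25). Within flow cell 1, where 2 DOX1X libraries stood against 4 PBS libraries, 10 of 11 mt- members were above 0 with a median of 0.25, and mt-Nd6 was at 0.29 (SE 0.11), mt-Nd4 at 0.33 (SE 0.14) and mt-Co1 at 0.35 (SE 0.17).

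Of the nuclear members, 5 had every DOX1X library above every PBS library (5.56%, against 3.18% of all genes) and none had every one below (3.82% of all genes). The 5 were Cox5b, Cox6b1, Cox6b2, Cox8a and Atp5g2. Atp5g2 had 28.5, 29.5 and 30.5 CPM in DOX1X, against 24.4 to 26.8 CPM in PBS. The DOX1X libraries overlapped the DOX4X range of 28.7 to 30.1 CPM, and all were above PBS (log2 fold change 0.23, SE 0.07, edgeR adjusted p = 0.60). Cox6b1 had 137, 132 and 145 CPM in DOX1X (log2 fold change 0.17, SE 0.07) and Cox6b2 had 8.88, 9.95 and 8.78 CPM (log2 fold change 0.55, SE 0.23). Cox5b had 53.9, 55.6 and 55.9 CPM in DOX1X, above all PBS libraries (log2 fold change 0.13, SE 0.07). Cox8a was at 0.12 (SE 0.07), Ndufb3 at 0.17 (SE 0.08), Ndufc1 at 0.18 (SE 0.09), Uqcr11 at 0.22 (SE 0.10), Uqcrb at 0.14 (SE 0.09) and Atp5mpl at 0.19 (SE 0.11). The values at or below 0 included Sdha at -0.12 (SE 0.14), Sdhc at -0.04 (SE 0.08), Atp5b at -0.08 (SE 0.11) and Ndufa4l2 at -0.53 (SE 0.34). Ndufa4l2 had 9.62, 10.0 and 16.2 CPM in DOX1X and 26.3, 17.3, 12.1 and 13.4 CPM in PBS, and the ranges overlapped. By complex, the medians were 0.12 for complex IV (15 of 18 above 0), 0.11 for complex III (6 of 8), 0.07 for complex V (14 of 19), 0.03 for complex I (25 of 41) and -0.02 for complex II (1 of 4). Within flow cell 1, 58 of 89 nuclear members were above 0, with a median of 0.01.

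Between the doxorubicin groups, no member passed (DOX4X against DOX1X, edgeR's quasi-likelihood test, every adjusted p = 1.00 after rounding; 0 members at an unadjusted p under 0.05, against 2.23% of all genes higher and 2.13% lower; 0 by DESeq2 and by limma-voom), where 1 gene of 17838 did, or 0.00561%. The log2 fold change was above 0 for 70 of 90 nuclear members with a median of 0.03 and for 2 of 11 mt- members with a median of -0.10, against 49.7% of all genes. Without DOX4X 3 the nuclear count was 37 of 90 (median -0.02) and the mt- count 0 of 11 (median -0.20). The mt- count was also 0 without DOX1X 2, 5 without DOX1X 3 and 4 without DOX4X 4. Every DOX4X library was above every DOX1X library for 3 nuclear members (3.33%, against 3.19% of all genes), a share close to that of all genes, and every one was below for none (2.79% of all genes). The 3 were Cox5b, Ndufv1 and Ndufa10. Ndufa10, an accessory subunit of complex I named for this count, had 73.9, 71.4, 66.1 and 67.3 CPM in DOX4X and 62.8, 63.9 and 61.5 CPM in DOX1X (log2 fold change 0.15, SE 0.09). The mt- values with the largest difference were mt-Nd3 at -0.33 (SE 0.33) and mt-Co1 at -0.27 (SE 0.16). Within flow cell 2, where DOX1X 3 is the only DOX1X library, 37 of 90 nuclear and 0 of 11 mt- members were above 0. The doses, the number of injections and the time since the first injection all differ between these groups.

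As a share of all counts, the 13 mt- rows took 0.442% ± 0.084 in DOX4X (SD, n = 4), 0.482% ± 0.077 in DOX1X (n = 3) and 0.369% ± 0.054 in PBS (n = 4). The single libraries were at 0.415%, 0.447%, 0.554% and 0.354% in DOX4X, at 0.486%, 0.403% and 0.557% in DOX1X and at 0.336%, 0.314%, 0.395% and 0.431% in PBS. All 3 groups overlapped. The 95 nuclear rows took 0.782% ± 0.047 in DOX4X, 0.727% ± 0.024 in DOX1X and 0.688% ± 0.047 in PBS, where DOX4X 4 (0.739%) lay below PBS 4 (0.744%). Since 6 of the 13 mt- rows hold almost no counts, the mt- share is that of the 7 well-counted genes.

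**Figure D4:**
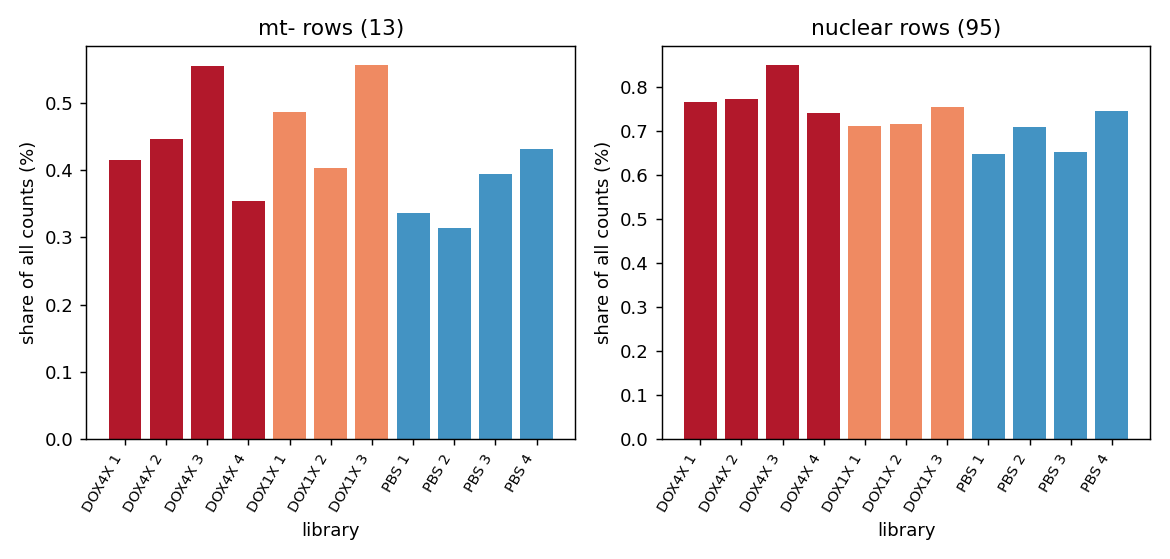
Share of all counts taken by the 13 mt- rows (left) and the 95 nuclear rows (right) in each library, for DOX4X, DOX1X and PBS. The mt- share is highest in DOX4X 3 (0.554%), DOX1X 3 (0.557%) and PBS 4 (0.431%) of their groups, and the groups overlap in both panels.

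Across the 11 libraries, the members varied together along 1 axis that followed mRNA length. The first principal component of the 80 nuclear members with a mean of at least 5 CPM held 53.3% of their variance over the 11 libraries. Group means were not removed, so it includes differences between groups. Its loadings went with log2 mRNA length over 79 members (Pearson r = -0.71, Spearman rho = -0.66), a description across genes that share the same 11 libraries. The highest loadings were those of the small subunits Ndufb1, Atp5e, Ndufb2, Atp5md and Atp5l, and the lowest those of the larger subunits Sdha, Atp5a1, Atp5b, Uqcrc1 and Ndufs1. Most loadings were above 0, so most members rose together along this axis, with higher loadings in general for shorter mRNAs.

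The same 3 libraries were at one end of this axis. PBS 4 scored 1.24 where the other PBS libraries scored -1.53 to -0.79, DOX1X 3 scored 1.43 where the others scored -0.45 and -0.15, and DOX4X 3 scored 1.73 where the others scored -0.51 to 0.20. With members split at the median mRNA length of 714 bases, the 40 shorter members had a median deviation from their gene means of 0.21 (log2 CPM) in DOX4X 3, 0.16 in DOX1X 3 and 0.13 in PBS 4. The other libraries were between -0.05 and 0.04 in DOX4X, at 0.01 and -0.03 in DOX1X and between -0.19 and -0.12 in PBS. The 39 longer members were also highest in DOX4X 3 (0.14). They lay between -0.01 and 0.14 in DOX4X, between -0.03 and -0.02 in DOX1X and between -0.10 and 0.02 in PBS. These 3 libraries also had the highest mt- share of their groups. In their groups they had the lowest slope of the deviation from gene means (log2 CPM) on log2 mRNA length over 14213 genes. It was -0.05 in DOX4X 3 and DOX1X 3 and -0.01 in PBS 4, where the other PBS libraries were at 0.04 to 0.10. PBS 4 lay above DOX4X 2 and DOX1X 1, both at -0.03, and DOX4X 4, at -0.02. The part of RNA quality, library preparation or cell state in this axis was not tested.

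**Figure D5:**
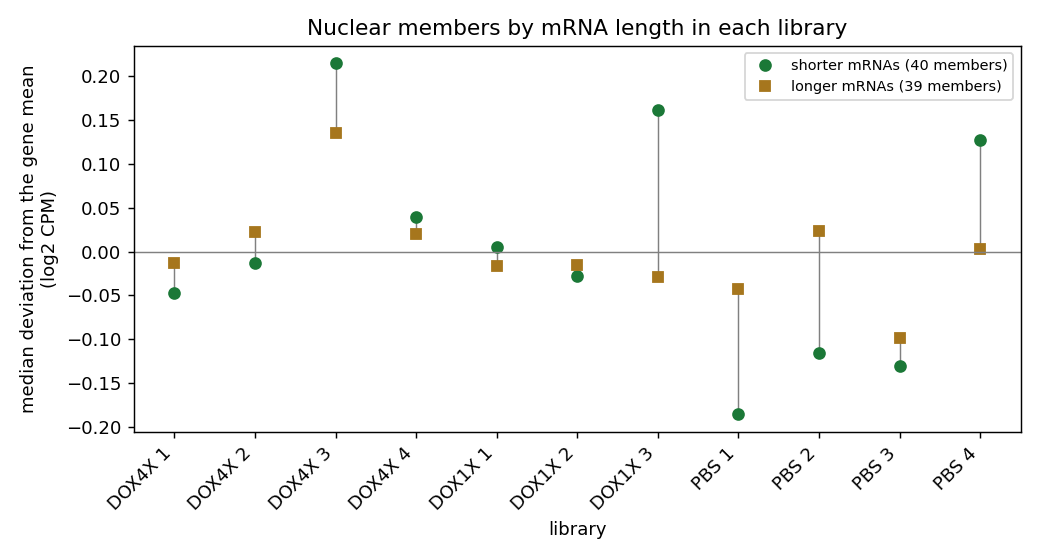
Median deviation of nuclear members from their gene means (log2 CPM) in each library, for the 40 members with shorter and the 39 with longer mRNAs, in DOX4X, DOX1X and PBS. The shorter members are highest in DOX4X 3, DOX1X 3 and PBS 4 (0.21, 0.16 and 0.13) and lowest in PBS 1 (-0.19).

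The axis bears on the comparisons with PBS, since the length slope differed between groups. Its mean was 0.042 ± 0.042 in PBS (SD), -0.024 ± 0.024 in DOX4X and -0.024 ± 0.028 in DOX1X. As a covariate it takes up part of any group difference, so length and treatment cannot be told apart in these fits. With the length slope as a covariate, the log2 fold change for DOX4X against PBS was above 0 for 34 of 90 nuclear members (median -0.05) and for 4 of 11 mt- members (median -0.07), and 6 nuclear members were higher and 8 lower at an unadjusted p under 0.05. In the same fit, 3349 of 17838 genes were at that p in either direction, against 2471 in the main fit. Cox5b was then at 0.18 (SE 0.08), Atp5g2 at 0.21 (SE 0.09) and Cox6b2 at 0.99 (SE 0.26), while Ndufc2 was at 0.00 (SE 0.08), Uqcr11 at 0.02 (SE 0.10) and Sdha at 0.33 (SE 0.12). For DOX1X against PBS, the same covariate left 26 of 90 nuclear members above 0 (median -0.09), with 1 higher and 5 lower at an unadjusted p under 0.05, and 8 of 11 mt- members (median 0.09), with 0 at that p. Over all genes, 2331 of 17838 were then at that p in either direction, against 1278 in the main fit. With PBS 4, DOX1X 3 and DOX4X 3 left out together, for DOX4X against PBS 73 of 89 nuclear members (median 0.08) and 10 of 11 mt- members (median 0.16) were above 0, and 21 nuclear members were higher at an unadjusted p under 0.05. Without PBS 4 alone that last count was 24, without DOX4X 3 alone it was 6, with 58 of 90 above 0, and without PBS 1 alone it was also 6. Genes at that p in either direction numbered 2913 of 17857 without the 3 libraries and 2743 of 17730 without PBS 4. They numbered 2352 of 17703 without DOX4X 3 and 2071 of 17738 without PBS 1. For DOX1X against PBS without the 3 libraries, 69 of 89 nuclear (median 0.06) and 11 of 11 mt- members (median 0.30) were above 0. At that p, 8 nuclear members were higher and 1 lower and 4 mt- members higher, beside 1898 of 17857 genes in either direction. For DOX4X against DOX1X without the 3 libraries, 55 of 89 nuclear (median 0.02) and 1 of 11 mt- members (median -0.18) were above 0. No nuclear or mt- member passed the edgeR threshold in any of these fits.

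Most markers of other marrow cells also had higher values in DOX4X, without passing the threshold. For DOX4X against PBS, the log2 fold change was above 0 for 9 of 9 B lineage, 10 of 10 erythroid, 6 of 6 T and NK and 8 of 8 endothelial markers. It was above 0 for 9 of 10 neutrophil, 5 of 9 macrophage and 5 of 6 mural markers, against 52.2% of all genes tested. The summed level of the B lineage markers lay between 76.2 and 215 CPM in DOX4X, between 69.2 and 104 CPM in DOX1X and between 33.7 and 76.0 CPM in PBS. That of the erythroid markers lay between 311 and 687 CPM in DOX4X, between 247 and 589 CPM in DOX1X and between 146 and 329 CPM in PBS. The endothelial markers lay between 362 and 718 CPM in DOX4X, between 115 and 252 CPM in DOX1X and between 75.0 and 435 CPM in PBS. No marker was at 0 in every library. For DOX1X against PBS, 10 of 10 neutrophil markers (median log2 fold change 1.66, 7 at an unadjusted p under 0.05) were above 0. So were 10 of 10 erythroid markers (median 1.10, also 7), 9 of 9 B lineage, 6 of 6 T and NK and 4 of 9 macrophage markers, against 0 of 8 endothelial and 0 of 6 mural markers. Over all genes, 51.2% were above 0 and 3.42% were higher at that p. The summed neutrophil markers lay between 221 (DOX1X 3) and 829 CPM in DOX1X and between 163 and 576 CPM in PBS. With the neutrophil, macrophage, B lineage and erythroid markers as a covariate, 77 of 90 nuclear and 11 of 11 mt- members were above 0 for DOX4X against PBS, and 71 of 90 nuclear and 11 of 11 mt- members for DOX1X against PBS. The score formed from those markers had a mean of -0.557 in PBS, 0.263 in DOX4X and 0.392 in DOX1X. It takes up part of any group difference, so blood cells and treatment cannot be told apart in these fits. The part of endothelial, mural, T and NK cells was not tested.

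Other genes of the pathway did not pass the threshold either (0 of every list, in each comparison with PBS). For the mitochondrial ribosome, which translates the mt- transcripts, 75 of 78 genes were above 0 for DOX4X against PBS, with a median of 0.13 and 15 higher at an unadjusted p under 0.05. Over all genes tested, 52.2% were above 0 and 6% were higher at that p. The lists were not counted with flow cell or the length slope as a covariate. Among the ribosomal genes, Mrps24 was at 0.29 (SE 0.09) and Mrps6 at 0.43 (SE 0.14). For mitochondrial transcription, replication and RNA genes, 17 of 21 were above 0 (median 0.12), with Fastkd1 at 0.27 (SE 0.11) and Tfb1m at 0.31 (SE 0.15). Lists for assembly were mixed: 9 of 14 for complex I (Ndufaf3 at 0.26, SE 0.09, Acad9 at -0.16, SE 0.07), 7 of 13 for complexes II, III and V (Sdhaf4 at 0.22, SE 0.10, Uqcc1 at -0.13, SE 0.06) and 9 of 18 for complex IV (Higd2a at 0.16, SE 0.06, Cox17, a copper chaperone, at 0.50, SE 0.20).

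Lists of genes that feed or regulate respiration had medians between -0.05 and 0.07 for DOX4X against PBS. Of all genes tested, 52.2% were above 0 (median 0.01), and the share above 0 varied between the lists. In the tricarboxylic acid cycle list, 9 of 17 were above 0 with a median of 0.01, and Pdha1 (a subunit of pyruvate dehydrogenase) and Sucla2 (a subunit of succinyl-CoA synthetase) were at -0.23 (SE 0.09) and -0.22 (SE 0.08). In glycolysis, 12 of 18 were above 0 with a median of 0.05, and the glucose transporter Slc2a1 and hexokinase Hk2 were at 0.32 (SE 0.13) and 0.53 (SE 0.23). Electron carriers and coenzyme Q synthesis had 14 of 19 above 0 (median 0.04), with Coq9 at 0.18 (SE 0.09) and Dhodh at 0.15 (SE 0.10). Nucleotide exchange, pores and uncoupling had 5 of 11 above 0 (median -0.05), with the uncoupling protein gene Ucp2 at 0.88 (SE 0.40) and Vdac3 at -0.12 (SE 0.08). Among nuclear regulators, 9 of 16 were above 0 (median 0.07), with Pparg, a regulator of fat cell genes, at 0.47 (SE 0.14) and Hif1a, the hypoxia factor, at -0.22 (SE 0.08).

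For DOX1X against PBS, the medians of these lists lay between -0.05 and 0.06, and 51.2% of all genes tested were above 0 (median 0.01). The mitochondrial ribosome had 56 of 78 above 0 (median 0.06) and mitochondrial transcription, replication and RNA genes 12 of 21 (median 0.01). The tricarboxylic acid cycle had 6 of 17 (median -0.05), glycolysis 6 of 18 (median -0.03), electron carriers and coenzyme Q synthesis 10 of 19 (median 0.01) and complex IV assembly 9 of 18 (median 0.00). Higd2a was at 0.18 (SE 0.07) and Acad9 at -0.19 (SE 0.08).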

How the data were processed

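The authors deposited raw, unnormalized gene counts. The submitters' processing notes name the build GRCm39 and the tools featureCounts 2.0.1, STAR 2.7.9a, Trim Galore 0.6.6 and SAMtools 1.17. Their strand and multi-mapping settings are not stated in the sources used here. The SMART-Seq kit named in the labels does not mark strand. The 11 libraries entered 1 fit of group means in edgeR 4.0.16 (R 4.3.3) after filterByExpr (17838 genes) and TMM scaling, and groups were tested with the two-sided quasi-likelihood test, Benjamini-Hochberg adjusted over all genes, at a threshold of 0.05. SE is that of the log2 fold change. Each p-value sets a group difference against the spread between libraries within groups, estimated over all 11 libraries together. CPM values are TMM-scaled.

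The members, the lists and the alternatives were chosen with earlier results of these data known. Named are all mt- rows, the listed isoforms, and per complex the 2 members with the smallest p in each comparison with PBS and the highest per kilobase, and per list the 2 genes with the smallest p for DOX4X against PBS. Cox8b, Cox8c, Cox7b2 and the inhibitor Atpif1 are not analysed here. Levels per kilobase used the shortest principal transcript of GENCODE vM21. The procedure was checked on simulated counts. Alternatives were RLE and upper quartile scaling, mt- rows left out of library sizes, no filter and a filter of 5 CPM in 3 libraries. Others were DESeq2 1.42.0, limma-voom with library quality weights (limma 3.58.1), the compared groups alone, a threshold of 0.10 and the replicate block. The rest were leaving out each library, and blood-cell markers (prior count 2) and flow cell as covariates. The length slope covariate, the fits within a flow cell and leaving out 3 libraries together were added after seeing the data.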

Additional observations from a re-analysis of the deposited data

Results flagged for a closer look

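In groups of 4 libraries, a single library stood far from the other 3 for 3 of the 90 combinations of measure and group that were checked, where chance flags about 1 in 20. Ndufb3 was at 52.0 CPM in DOX4X 3 and at 47.0 to 47.7 CPM in the other DOX4X libraries. Cox7a2 was at 73.3 CPM in PBS 4 and at 61.1 to 61.5 CPM in the other PBS libraries. Atp5g2 was at 26.8 CPM in PBS 3 and at 24.4 to 24.6 CPM in the other PBS libraries. DOX4X 3 and PBS 4 are 2 of the libraries with high values of short members.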

How the results depend on the processing

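The count of members past the threshold was 0 in each set and comparison with edgeR under every alternative, and 2 nuclear members passed for DOX4X against PBS with DESeq2, which called 181 genes higher and 418 lower in all, against 0 and 26 with edgeR. For DOX1X against PBS, DESeq2 called 13 genes higher and 28 lower, and edgeR 1 higher. Over all genes, the edgeR count of 26 for DOX4X against PBS ran from 0 (for example with the blood-cell marker covariate) to 80 without PBS 4. With the length slope as a covariate, the medians for DOX4X against PBS were -0.053 (nuclear) and -0.069 (mt-), and those for DOX1X against PBS -0.087 (nuclear) and 0.092 (mt-). The blood-cell marker covariate gave a nuclear median of 0.16 for DOX1X against PBS. Leaving out 1 library gave medians from 0.04 to 0.14 (nuclear) and 0.09 to 0.27 (mt-) for DOX4X against PBS, 0.02 to 0.11 and 0.25 to 0.43 for DOX1X against PBS, and -0.02 to 0.07 and -0.22 to -0.03 for DOX4X against DOX1X. For DOX4X against PBS, 2 mt- members were higher at an unadjusted p under 0.05 without PBS 3, PBS 4 or DOX4X 4, in place of 1. The causes were not tested. Of 3139 recomputed log2 fold changes of single genes, 219 changed sign while not past the threshold in either fit. With the replicate block, 0 members passed, and 16 nuclear members were higher at an unadjusted p under 0.05 for DOX4X against PBS and 11 for DOX1X against PBS. Over all genes with the block, 2797 of 17838 were at that p for DOX4X against PBS and 1508 for DOX1X against PBS, in either direction. For DOX4X against DOX1X, 50 of 90 nuclear members were above 0 with the block. Deviations of same-numbered libraries correlated at -0.12 to 0.08 (DOX4X and PBS), -0.03 to 0.10 (DOX1X and PBS) and 0.08 to 0.35 (DOX4X and DOX1X). In no pair of groups did every correlation exceed 0.1, so the libraries were treated as sharing only a number, and the block changed no call of a member. Values of rows below 1 CPM are limited by depth.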
